A study of Mus musculus with 10 samples.

Results

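Glutamate receptor genes were followed in the dentate gyrus of the mouse between 4 and 12 weeks of age. Genes of the Cacng family, several of whose proteins accompany AMPA receptors, were followed with them. Members were chosen by symbol: the ionotropic subunits (Gria, Grid, Grik and Grin genes), the metabotropic receptors (Grm genes), and Cacng2, Cacng3 and Cacng5 to Cacng8. The rule named 32 genes, of which 28 had a probe set of their own here, among 19752 genes in all: 16 ionotropic, 7 metabotropic and 5 Cacng genes. The other 4 were not analysed here. Both dentate gyri were cut out of the hippocampus with a needle tip, from untreated mice of the strain given as C56BL/6J, and their total RNA was hybridised to Affymetrix arrays at 4, 6, 8, 10 and 12 weeks, with 2 arrays per age. Age alone distinguishes the groups. Whether the 2 arrays of an age come from different animals, or from pooled ones, is not given, and the p-values therefore cover only array-to-array spread, part of which may be technical. All values are log2 levels per probe set, in which a difference of 1 is a doubling. Levels of different genes are not set against each other, since each probe set binds with its own strength.

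Glutamate is the main excitatory transmitter of the brain. AMPA receptors carry the fast current of excitatory synapses, NMDA receptors open when glutamate binding and depolarization coincide and start synaptic plasticity, and kainate receptors tune release and excitability. Metabotropic receptors act through G proteins. TARPs, the transmembrane AMPA receptor regulatory proteins of the Cacng family, bring AMPA receptors to the surface and set their gating. In newborn granule neurons of the dentate gyrus the makeup of these receptors is known to change as the cells mature.

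All 10 arrays were labelled as female, but Xist, the RNA that silences an X chromosome, was at 5.41 to 6.02 and the Y-linked genes Kdm5d and Uty between 8.89 and 9.34 on every array, so the labels do not match these genes at any age. Array medians were 8.27 to 8.31. Of the 10 arrays, 8 weeks replicate 1 had the narrowest distribution (SD 2.12), and that of 6 weeks replicate 1 had a Ttr level, a choroid plexus gene, of 13.77 against 8.87 to 10.15 elsewhere. All 14 markers of mature granule cells lay above a reference for dim signal, the 95th percentile of 1203 olfactory, vomeronasal and trace amine receptor genes (7.01 on average); Prox1, which keeps granule cells in their fate, averaged 12.29 and Calb1 12.63. All 28 receptor and Cacng genes lay above the reference on all 10 arrays. The lowest means were those of Grm6 (7.31), Grm8 (7.42), Grin3b (7.46) and Grik1 (7.55). These genes lay close to the reference, which ran from 6.88 to 7.18 across arrays.

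Receptor levels moved little over these ages, with 1 exception. Cacng5, the TARP gamma-5 gene, fell by 0.41 ± 0.07 (SE) on the log2 scale over the 8 weeks, 1.33-fold. None of the other 27 genes passed, and their fitted changes lay between −0.27 and 0.13. The test was a linear trend on age in weeks fitted with limma to all genes and all arrays, with Benjamini-Hochberg adjustment over 19752 genes and a threshold of 0.05. It called 1 of the 28 genes (3.57%), against 0.82% of all genes (162). Lower calls were 1 of 28 members against 0.673% of all genes (133), and higher calls 0 of 28 against 0.147% (29). After quantile normalization 131 genes were lower and 65 higher. At an unadjusted p under 0.05 the count was 2 of 28 (7.14%) against 11.7% of all genes. Of the changes 15 were below 0 (53.6%, against 48.8% of all genes), with a median of −0.01 beside 0.00 for all genes. A change of over 0.2 in size was seen for 2 of 28 genes (7.14%), against 10.1% of all genes. The lowest and highest of the 10 arrays differed by a median of 0.27 log2 units per gene, from 0.12 for Gria1 to 0.47 for Cacng5.

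**Figure D1:**
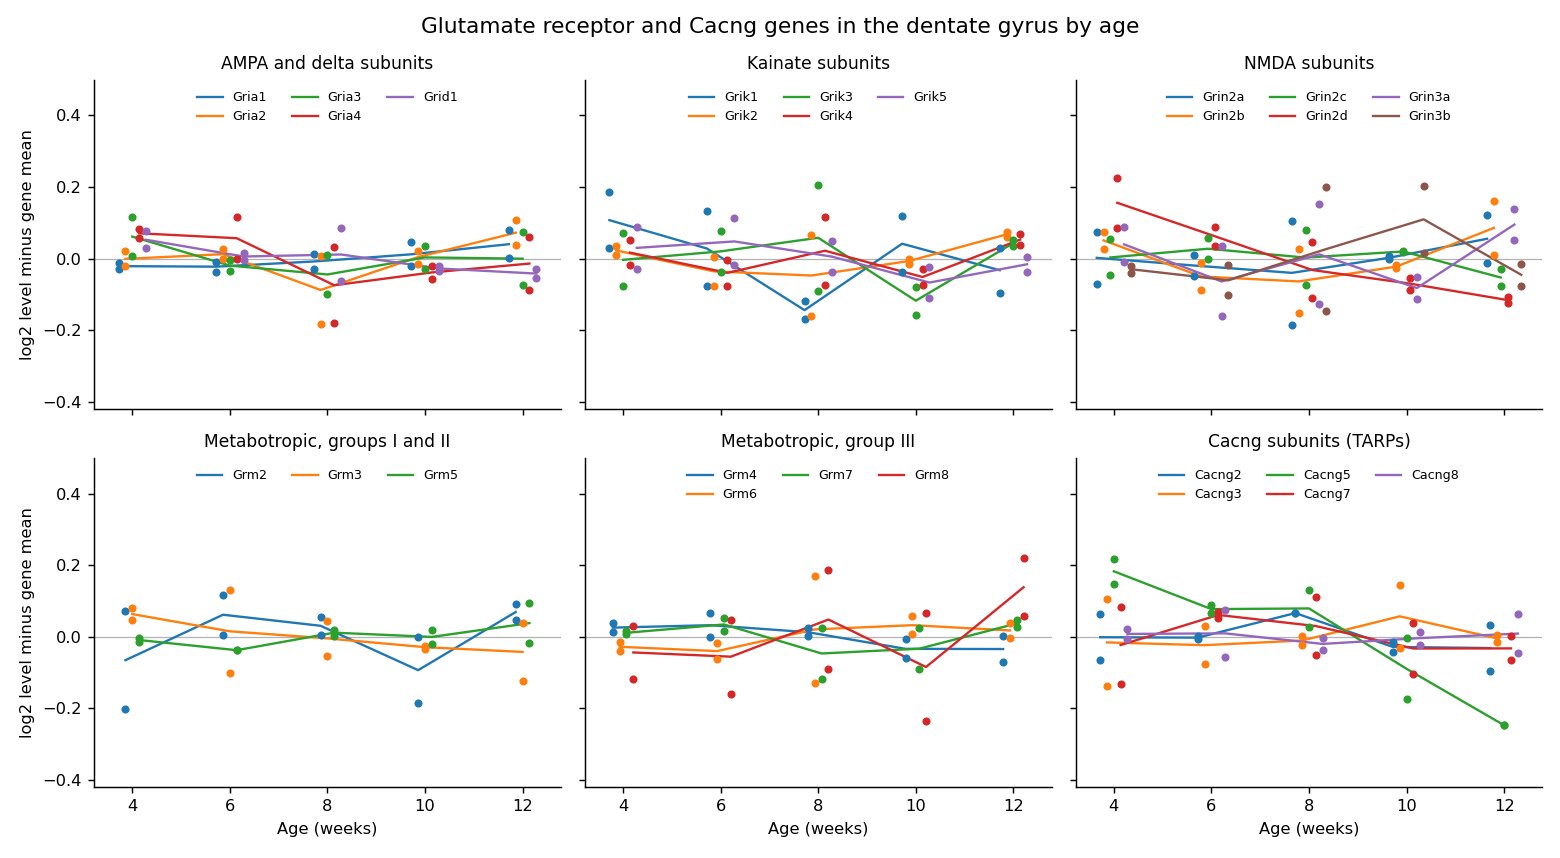
Log2 level minus the gene's mean over the 10 arrays (vertical axis) by age in weeks (horizontal axis, points shifted slightly per gene) for the 28 measured genes in 6 panels by receptor class; each point is 1 array and lines join the means of 2 arrays. Cacng5 goes from 9.73 at 4 weeks to 9.30 at 12 weeks, and Grin2d from 8.68 to 8.41. Every line crosses 0 because each gene is centred on its own mean.

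Cacng5 encodes a type II TARP and within the hippocampus is known from CA2 pyramidal cells. Its level was 9.77 and 9.70 at 4 weeks, 9.62 and 9.64 at 6 weeks, 9.68 and 9.58 at 8 weeks, 9.55 and 9.37 at 10 weeks, and 9.30 on both arrays at 12 weeks. Both 12-week arrays were below all others, and both 4-week arrays were above all others. The trend had a 95% interval of −0.56 to −0.26 and an adjusted p of 0.018 (limma), at place 77 of 19752 by p. Leaving out a single 4-week array raised the adjusted p to 0.11 (replicate 1) or 0.056 (replicate 2), and leaving out a single 12-week array to 0.081 (replicate 1) or 0.079 (replicate 2), with changes between −0.44 and −0.39. Without both 12-week arrays the change was −0.33 (adjusted p = 0.27).

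The gene lies on chromosome 11 (mm10, 107874604 to 107915055), 79.9 kb from Cacng4, a type I TARP gene outside the rule. Cacng4 stood at 10.38 and 10.47 at 4 weeks, 10.18 and 10.26 at 6 weeks, 10.23 and 10.21 at 8 weeks, 10.13 and 10.04 at 10 weeks, and 10.12 and 10.13 at 12 weeks. The 4-week arrays were the highest, and the change of −0.29 ± 0.07 (SE) did not pass (adjusted p = 0.079, limma). Cacng1, next in the same cluster and known as a subunit of the muscle calcium channel, had a change of 0.01 ± 0.09. The other type II TARP gene, Cacng7, lies on chromosome 7 (3332027 to 3368221), 25.8 kb from Cacng8.

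Because Cacng5 alone passed, the 250 bases before its RefSeq starts (GRCm38.p6) are shown beside those of Cacng7, the other type II TARP gene. Cacng5 has 2 starts in the table, both on the minus strand; the Cacng7 window is on the plus strand and lies before a start inside the span given above for that gene. Capitals mark the GC box (GGGCGG or its complement CCGCCC), searched on both strands.
Cacng5 outer start, chr11:107915056-107915305: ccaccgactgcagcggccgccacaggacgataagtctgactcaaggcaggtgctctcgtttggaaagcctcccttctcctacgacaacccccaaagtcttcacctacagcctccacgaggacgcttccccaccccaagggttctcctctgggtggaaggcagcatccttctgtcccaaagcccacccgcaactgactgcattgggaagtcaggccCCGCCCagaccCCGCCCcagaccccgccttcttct
Cacng5 inner start, chr11:107911363-107911612: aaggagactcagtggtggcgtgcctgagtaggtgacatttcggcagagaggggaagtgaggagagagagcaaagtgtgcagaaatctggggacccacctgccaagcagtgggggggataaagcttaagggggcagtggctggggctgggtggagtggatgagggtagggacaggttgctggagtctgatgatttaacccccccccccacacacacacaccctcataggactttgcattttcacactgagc
Cacng7 inner start, chr7:3332575-3332824: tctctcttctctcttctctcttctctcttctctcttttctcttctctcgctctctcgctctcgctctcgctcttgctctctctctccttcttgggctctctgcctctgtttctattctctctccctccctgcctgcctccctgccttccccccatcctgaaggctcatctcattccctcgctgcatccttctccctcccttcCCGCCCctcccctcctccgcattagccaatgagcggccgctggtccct
The outer Cacng5 window held 2 GC boxes, the inner one 0 and the Cacng7 window 1. GC boxes occur in 32.7% of the 32851 windows of this length in the table and in 11 of the 23 windows of measured receptor and Cacng genes (19 of 28 genes matched). The other motifs searched on both strands were in none of the 3 printed windows. Of the 23 members' windows the E-box CAGCTG was in 2 (13.0% of all windows), the E-box CAGATG in 1 (14.4%), the E-box CACGTG in 0 (6.02%), TATAAA in 1 (12.4%) and the cAMP response element TGACGTCA in 0 (1.55%). The outer Cacng5 window held 12 CpG dinucleotides, the inner 2 and that of Cacng7 9, against a median of 6.

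**Figure D2:**
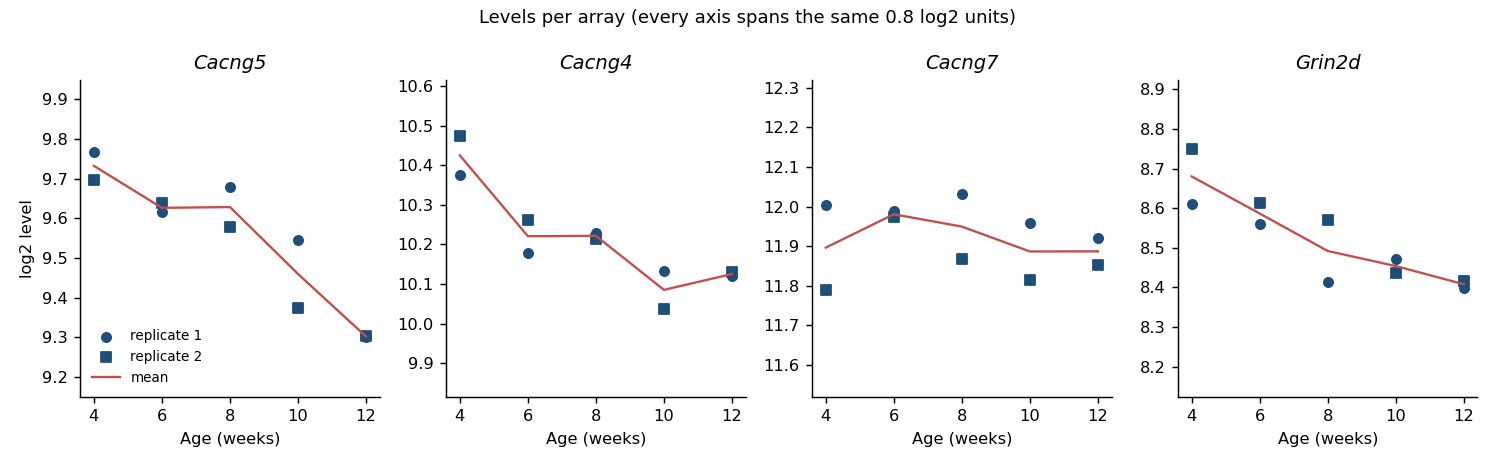
Log2 level (vertical axis, each panel spanning the same range) by age in weeks for Cacng5, its chromosomal neighbour Cacng4, the other type II gene Cacng7 and the NMDA subunit gene Grin2d; circles are replicate 1, squares replicate 2 and lines join the means. Cacng5 ends at 9.30 on both 12-week arrays, and the Cacng7 points show no such order.

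The other TARP genes did not pass. Cacng7 lay at 12.00 and 11.79 at 4 weeks, 11.99 and 11.97 at 6 weeks, 12.03 and 11.87 at 8 weeks, 11.96 and 11.81 at 10 weeks, and 11.92 and 11.85 at 12 weeks. The arrays of 4 weeks spanned those of 12 weeks, and the change was −0.05 ± 0.08 (SE). Cacng8, the gamma-8 gene prominent in the hippocampus, stayed between 11.56 and 11.69, with a change of 0.00 and a 95% interval of −0.13 to 0.12. Cacng2, which encodes stargazin, lay between 11.10 and 11.26 and had a change of −0.03 ± 0.06; its other probe set gave −0.16. Cacng3 lay between 11.68 and 11.96 with a change of 0.04 ± 0.08.

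Among AMPA subunit genes, Gria1 had the smallest spread of all 28 genes. It lay between 13.22 and 13.34, with a change of 0.06 ± 0.05 (SE) and a 95% interval of −0.05 to 0.17. Gria2, whose edited subunit makes the receptor impermeable to calcium, lay at 12.48 and 12.52 at 4 weeks, 12.53 and 12.50 at 6 weeks, 12.32 and 12.51 at 8 weeks, 12.52 and 12.49 at 10 weeks, and 12.54 and 12.61 at 12 weeks (change 0.06 ± 0.07). Its lowest value was on 8 weeks replicate 1, and both 12-week arrays were above the others. Gria3 lay between 11.93 and 12.14 (−0.04 ± 0.07). Gria4, a subunit gene also known from early development and interneurons, lay at 9.57 and 9.59 at 4 weeks, 9.62 and 9.51 at 6 weeks, 9.33 and 9.54 at 8 weeks, 9.49 and 9.45 at 10 weeks, and 9.42 and 9.57 at 12 weeks. The higher 12-week value lay between those of 4 weeks, and the change of −0.11 ± 0.08 did not pass (adjusted p = 0.68, limma). The delta subunit gene Grid1, whose protein binds cerebellins across the synapse, lay between 10.83 and 10.98 with a change of −0.09 ± 0.05.

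The NMDA subunit genes Grin2a and Grin2b are known for an exchange in the early postnatal forebrain, in which Grin2a gains on Grin2b. Between 4 and 12 weeks neither passed. Grin2a lay at 12.57 and 12.71 at 4 weeks, 12.59 and 12.65 at 6 weeks, 12.46 and 12.75 at 8 weeks, 12.64 and 12.65 at 10 weeks, and 12.63 and 12.76 at 12 weeks (change 0.05 ± 0.08, SE). Grin2b lay at 12.53 and 12.58 at 4 weeks, 12.42 and 12.49 at 6 weeks, 12.35 and 12.53 at 8 weeks, 12.49 and 12.48 at 10 weeks, and 12.52 and 12.66 at 12 weeks (0.04 ± 0.08). Both genes were lowest on 8 weeks replicate 1 and highest on 12 weeks replicate 2. The intervals were −0.13 to 0.23 and −0.13 to 0.21.

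Grin2d, a subunit gene known from interneurons and from early development, had the next largest change after Cacng5. It lay at 8.61 and 8.75 at 4 weeks, 8.56 and 8.61 at 6 weeks, 8.41 and 8.57 at 8 weeks, 8.47 and 8.44 at 10 weeks, and 8.40 and 8.42 at 12 weeks. The arrays of 4 and 12 weeks did not overlap, and the age means were lower at every step. The change of −0.27 ± 0.06 (SE, 95% interval −0.41 to −0.13) had an unadjusted p of 0.00098 but missed the threshold (adjusted p = 0.069, limma). It passed in 4 of 21 alternative fits, whose adjusted p-values ran from 0.026 to 0.27. Leaving out 8 weeks replicate 1 gave 0.036. The remaining NMDA subunit genes did not pass: Grin2c lay between 9.04 and 9.20 (−0.05 ± 0.06), Grin3a, an inhibitory subunit gene, between 9.47 and 9.78 (0.04 ± 0.10), and Grin3b between 7.31 and 7.66 (0.06 ± 0.10).

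The 5 kainate subunit genes did not pass. Grik1 lay between 7.38 and 7.74 (−0.11 ± 0.10, SE), and its 8-week arrays, at 7.38 and 7.43, were at the low end. Grik2 lay between 10.92 and 11.16 (0.05 ± 0.07), and Grik3 between 10.14 and 10.50 (−0.02 ± 0.09). Grik4, which encodes a high-affinity subunit and is prominent in CA3, lay between 10.41 and 10.60 (0.02 ± 0.07). Grik5, the other high-affinity subunit gene, lay between 11.83 and 12.05 (−0.08 ± 0.06).

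The 7 metabotropic receptor genes did not pass either. Grm5, the group I receptor gene that couples to calcium release, stayed between 12.41 and 12.54 with a change of 0.05 ± 0.05 (SE). Grm2, a presynaptic group II gene of granule cells, lay between 12.02 and 12.34 (0.05 ± 0.10). Grm3, the group II gene also expressed by astrocytes, lay between 11.54 and 11.79 (−0.10 ± 0.07); its age means were lower at every step, from 11.73 to 11.62, as were those of Grin2d, and no other member's were, while 2.23% of all genes had such an order. In group III, whose receptors damp transmitter release, Grm7 lay between 10.21 and 10.38 (−0.01 ± 0.06) and Grm4 between 8.43 and 8.56 (−0.07 ± 0.05). Grm6, known from the retina, lay between 7.18 and 7.48 (0.07 ± 0.07). Grm8 lay between 7.18 and 7.64 and had the highest fitted change of the 28 genes, 0.13 ± 0.12.

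**Figure D3:**
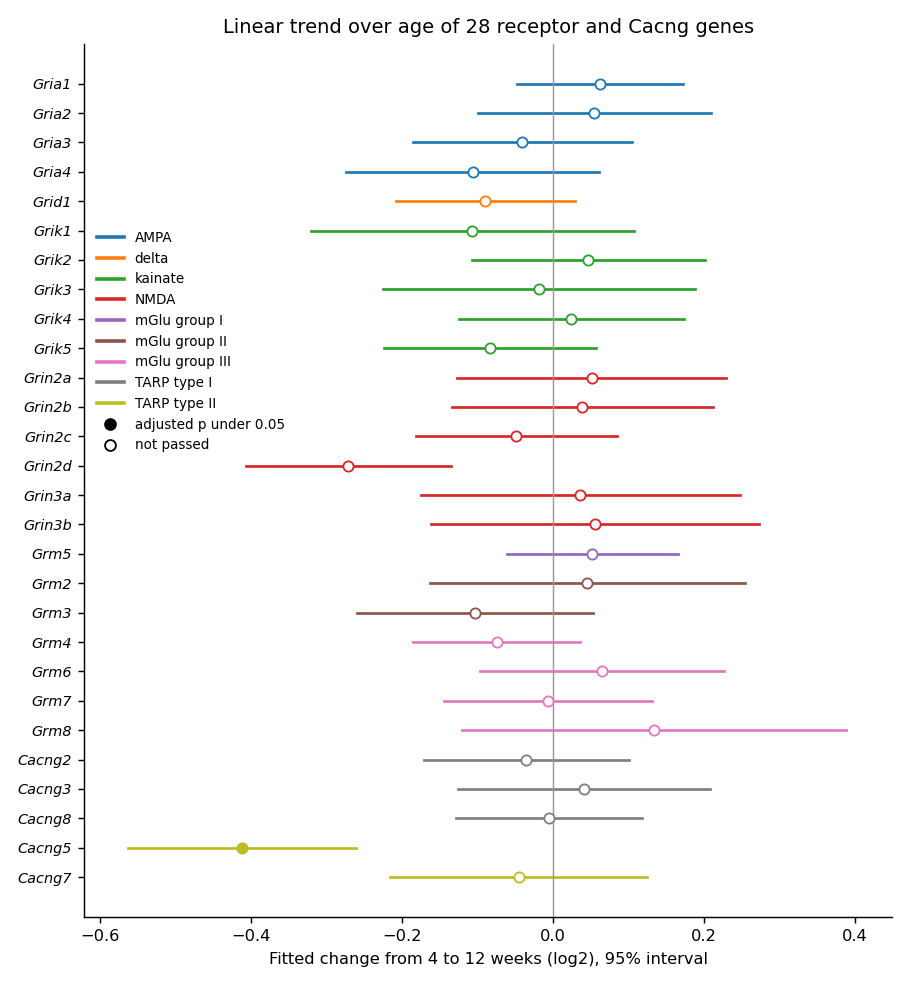
Fitted log2 change from 4 to 12 weeks (horizontal axis) with its 95% interval for the 28 genes, ordered and coloured by receptor class; a filled point passed at an adjusted p under 0.05 and open points did not. Cacng5 (−0.41) is the filled point, Grin2d (−0.27) is the other interval that leaves out 0, and the intervals of the other 26 genes lie between −0.32 and 0.39.

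These intervals bound only a straight-line change with age, gene by gene and without adjustment for the number of genes. For 26 of the 28 genes the whole 95% interval lay within 0.4 log2 units of 0, as it did for 84.1% of all genes. The exceptions were Cacng5 and Grin2d. Standard errors ran from 0.05 for Gria1 to 0.12 for Grm8. Smaller changes within these intervals cannot be told from 0 here. A dip or peak at a single age is not bounded by them. For Grm8 the interval of the step from 10 to 12 weeks was −0.08 to 0.52.

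Comparisons between single ages called no member. At 12 against 4 weeks Cacng5 differed by −0.43 ± 0.08 (SE) with an adjusted p of 0.056 (limma), and Grin2d by −0.27 ± 0.08 (0.25). Here 0 of 28 genes passed, against 0.516% of all genes, and 2 of 28 at an unadjusted p under 0.05, against 9.57%. Cacng5 passed in 5 alternative fits of this comparison. Arrays of 4 and 12 weeks did not overlap for 11 of the 28 genes. At 12 weeks 5 were lower (Cacng5, Grin2d, Grid1, Grm3 and Grm4; 17.9% against 22.2% of all genes) and 6 higher (Gria1, Gria2, Grik2, Grm6, Grm7 and Grm8; 21.4% against 21.6%).

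The test over any ages called 0 of 28 genes (limma F-test, 0.167% of all genes), with adjusted p = 0.28 for Cacng5 and 0.57 for Grin2d; at an unadjusted p under 0.05 it held the same 2 genes (7.14%, against 8.46%). The successive steps from 4 to 6, 6 to 8, 8 to 10 and 10 to 12 weeks each called 0 of 28 members and 0% of all genes in limma. Without 8 weeks replicate 2, the step from 6 to 8 weeks rests on 8 weeks replicate 1 alone, the array with the narrowest distribution. That fit cannot tell age from this array. At an unadjusted p under 0.05 the steps also held 0 of 28 members, against 4.13%, 6.25%, 4.79% and 5.59% of all genes. The largest step of Cacng5 was that from 8 to 10 weeks, from 9.63 ± 0.07 to 9.46 ± 0.12 (SD, n = 2), and it went on to 9.30 at 12 weeks.

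Ratios of subunits within an array leave out what raises or lowers both genes together. Only their change over age was read. The log2 ratio of Grin2b to Grin2a averaged −0.09 at 4 weeks, −0.17 at 6 weeks, −0.16 at 8 and 10 weeks and −0.11 at 12 weeks. Its fitted change of −0.01 ± 0.05 (SE) did not pass (exact permutation test over all 113400 assignments of ages to the 10 arrays, two-sided, p = 0.80). The ratio of Gria4 to Gria2 fell, although neither gene passed by itself. It stood at −2.91 and −2.93 at 4 weeks, −2.90 and −2.99 at 6 weeks, −2.99 and −2.96 at 8 weeks, −3.03 on both arrays at 10 weeks, and −3.12 and −3.04 at 12 weeks. The 10- and 12-week arrays were all below those of the younger ages. The fitted change was −0.16 ± 0.03 (1.12-fold lower; exact permutation p = 0.00053, adjusted over 3 ratios 0.00079).

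The ratio of Cacng5 to Cacng7 fell by 0.37 on the log2 scale (SE 0.06; exact permutation p = 0.00019, adjusted over 3 ratios 0.00058). It stood at −2.24 and −2.09 at 4 weeks, −2.37 and −2.33 at 6 weeks, −2.35 and −2.29 at 8 weeks, −2.41 and −2.44 at 10 weeks, and −2.62 and −2.55 at 12 weeks. The 4-week arrays were the highest and those of 12 weeks the lowest. This ratio holds the fall of Cacng5 given above and is no independent support for it. Ratios of other gene pairs were not tested, so these p-values do not say how common such a shift is.

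**Figure D4:**
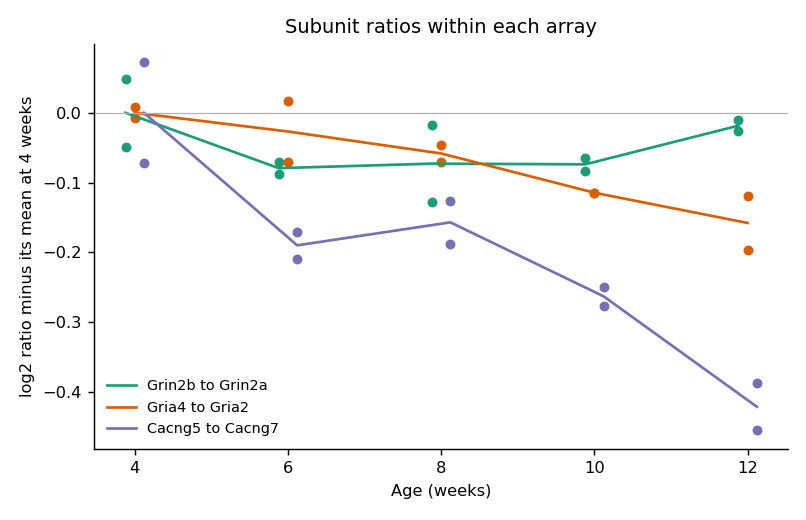
Log2 ratio of 2 subunit genes minus its mean at 4 weeks (vertical axis) by age in weeks for 3 ratios; each point is 1 array and lines join the means. Gria4 to Gria2 and Cacng5 to Cacng7 go down, with fitted changes of −0.16 and −0.37, and Grin2b to Grin2a does not (−0.01).

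Partner genes of the receptors were read from 6 lists of 94 genes, 86 of them measured. In the trend 2 fell and 0 rose (2.33% called, against 0.82% of all genes), and 16 of 86 had an unadjusted p under 0.05 (18.6%, against 11.7% of all genes). The lists' median change was −0.02. C1ql1, a secreted C1q-like protein of the synaptic cleft, fell (−0.32 ± 0.06, SE; adjusted p = 0.043, limma), the only call among 15 extracellular partners, of which 5 had an unadjusted p under 0.05. Slc17a6, a vesicular glutamate transporter gene, fell (−0.72 ± 0.13; adjusted p = 0.027), the only call among 13 genes of glutamate transport and metabolism, of which 2 had an unadjusted p under 0.05. On 12 weeks replicate 1 it was below the dim reference. Of 16 other auxiliary and assembly proteins 0 passed and 3 had an unadjusted p under 0.05; the smallest p-values were those of Cacng4 and of Neto2, an auxiliary subunit of kainate receptors (−0.21 ± 0.07). Of 18 scaffold and trafficking genes 0 passed and 4 had an unadjusted p under 0.05, led by Pick1, which binds AMPA receptors for internalization (−0.20 ± 0.06), and Dlg1 (0.14 ± 0.05). Of 14 kinase, phosphatase, editing and Arc genes 0 passed and 1 had an unadjusted p under 0.05, Fyn, a kinase of NMDA receptors (−0.30 ± 0.08); Src had 0.07 ± 0.06. Of 10 genes of metabotropic signalling 0 passed and 1 had an unadjusted p under 0.05, Plcb4, a phospholipase (−0.22 ± 0.07); Rgs4 had −0.13 ± 0.07.

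Marker lists of other cells moved over the same ages as Cacng5 and C1ql1, and their part in the fall of either gene was not tested. In bulk tissue, fewer cells of a type and less RNA per cell cannot be told apart. Of 12 markers of immature neurons 7 fell and 12 had changes below 0; the list's mean level was 10.69 and 10.75 on the 4-week arrays and 9.93 on both 12-week arrays. Of 10 markers of intermediate progenitors and dividing cells 7 fell, from means of 8.02 and 8.03 to 7.36 and 7.45. Of 10 markers in a joint list of oligodendrocyte precursors and newly formed oligodendrocytes 5 fell (9.20 and 9.25 to 8.74 and 8.79). The precursor markers Pdgfra (−0.16 ± 0.08, SE; adjusted p = 0.50, limma) and Cspg4 (−0.14 ± 0.07; 0.46) were not among the 5. Of 9 myelin markers 6 fell (10.40 and 10.45 to 9.88 and 9.94). None of these markers rose. Over all genes 0.673% were called lower and 48.8% had a change below 0. On both 12-week arrays 3 of the 10 markers of dividing cells (Mki67, Top2a and Tpx2) were below the dim reference of the array, and on the 4-week arrays 0 were; markers of the other 3 lists were above it on all arrays.

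Of 9 CA2 and CA3 markers 0 passed, 4 had changes below 0 and 1 had an unadjusted p under 0.05, with a positive change. Over all genes the shares were 48.8% and 11.7%. The list's mean was 9.84 and 9.91 at 4 weeks and 9.90 and 9.91 at 12 weeks. The smallest p-values were those of Rgs14, a CA2 gene (0.26 ± 0.08, SE; adjusted p = 0.19, limma), Necab2 (−0.13 ± 0.07) and Cpne4 (0.13 ± 0.07). The CA2 and CA3 values stand beside Cacng5, and their part was not tested. Of 9 interneuron markers 0 passed and 9 had changes below 0 (against 48.8% of all genes), and the list's mean was 10.08 and 10.19 at 4 weeks and 10.00 and 10.03 at 12 weeks; Gad2, which makes GABA, had −0.17 ± 0.07. These values stand beside Grin2d and Gria4, and their part was not tested. Of 9 astrocyte markers, to be set beside Grm3, 0 passed, with means of 11.10 and 11.12 at 4 weeks and 11.07 and 11.09 at 12 weeks. Among 14 granule cell markers Ntng1 rose (0.55 ± 0.09) and Tdo2 fell (−0.44 ± 0.08), and the list's mean lay between 11.35 and 11.49 on all arrays.

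Lists for further cell types and for neighbouring regions were read as well, against 11.7% of all genes with an unadjusted p under 0.05 and 48.8% with a change below 0. Of 6 markers of thalamus and neocortex 0 passed, 5 had changes below 0 and 3 had an unadjusted p under 0.05, all with negative changes (Tbr1, −0.19 ± 0.05, SE; Tcf7l2, −0.21 ± 0.09; Cux1, −0.13 ± 0.05). The list's mean was 9.47 and 9.54 at 4 weeks and 9.35 and 9.43 at 12 weeks. Tbr1 averaged 10.67. Whether these 6 genes mark tissue from outside the dentate gyrus in these arrays was not tested. The values stand beside Cacng5 and Slc17a6, and their part was not tested. Of 4 CA1 markers 0 passed and 0 had an unadjusted p under 0.05, with list means of 10.14 and 10.21 at 4 weeks and 9.87 and 10.06 at 12 weeks. Of 5 mossy cell markers 0 passed and 1 had an unadjusted p under 0.05. Of 7 microglial markers 0 passed and 3 had an unadjusted p under 0.05, with changes in different directions. C1qb had a change of 0.32 ± 0.14, P2ry12 −0.18 ± 0.08 and Cx3cr1 −0.14 ± 0.06. The list's mean was 9.73 and 9.79 at 4 weeks and 9.78 and 9.96 at 12 weeks. Of 6 endothelial markers 0 passed and 2 had an unadjusted p under 0.05 (8.54 and 8.60 at 4 weeks, 8.65 and 8.98 at 12 weeks). Of 8 choroid plexus markers 0 passed and 0 had an unadjusted p under 0.05.

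**Figure D5:**
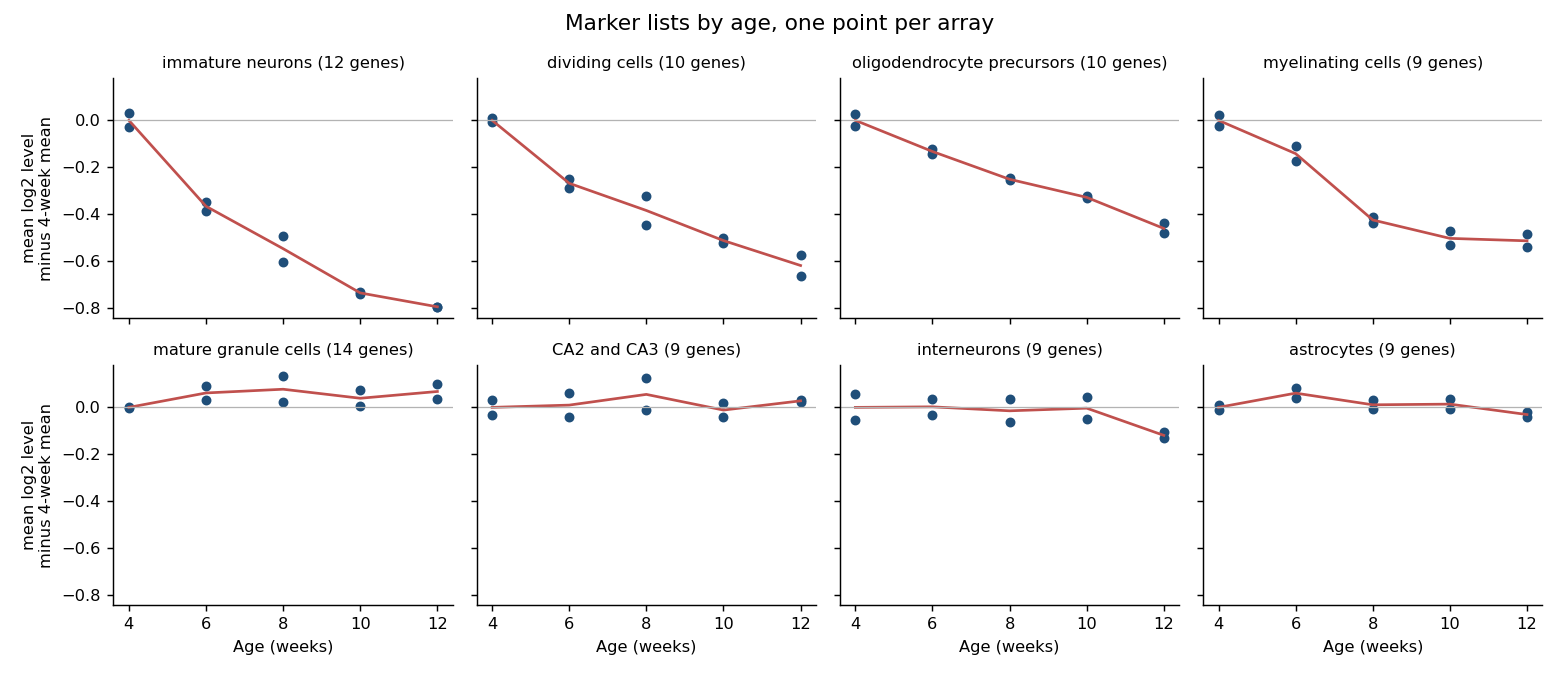
Mean log2 level of 8 marker lists minus its mean at 4 weeks (vertical axis) by age in weeks; each point is 1 array and lines join the means. Lists of immature neurons, dividing cells, oligodendrocyte precursors and myelinating cells go down. The list labelled oligodendrocyte precursors also holds markers of newly formed oligodendrocytes. The CA2 and CA3 list is at 9.84 and 9.91 at 4 weeks and 9.90 and 9.91 at 12 weeks.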

How the data were processed

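Total RNA of mouse dentate gyri was measured on 10 arrays. The deposited values are log2 expression per probe set, already normalized by the authors; the log base is taken from the range (2.50 to 15.0), and their software is not given in the sources used here. The build was mm10, per the submitters' processing notes. Of 25254 probe sets 21496 have 1 gene, 1565 several and 2193 none in the platform annotation; those with 1 gene were used, the probe set of highest mean per gene, without a filter on dim genes.

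Trend, F-test and contrasts were fitted with limma 3.58.1 (R 4.3.3) to all genes and adjusted by Benjamini-Hochberg; scripts were tested on simulated data. Of 5 planned subunit ratios 3 were run, since the others need a gene that was not analysed here. Coordinates and promoters come from RefSeq (GRCm38.p6). All members are named; of each partner list the called genes, or the 2 of smallest p, and of marker lists up to 3. Rgs14 and the granule cell genes follow that rule or label the tissue. Pdgfra and Cspg4 were named in addition, after the values were seen. The members and lists were chosen with earlier results of these data known. The number of arrays limits the precision. Alternatives were the replicate block, 2 normalizations, a dim filter, variance models, array weights, probe set means, log2 of age and left-out arrays.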

Additional observations from a re-analysis of the deposited data

How the results depend on the processing

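The count of 1 member with a trend stayed 1 in 12 of 21 alternatives. It was 2 (Cacng5 and Grin2d) without the dimmest 30% of genes, with array weights and without both arrays that stand apart, and 0 without the 12-week arrays; leaving out 1 array at a time gave 0 to 2. With 12 against 4 weeks the count of 0 became 1 (Cacng5) without the dimmest 30% of genes, with a trended variance and with array weights, and 0 to 1 when 1 array was left out; the 1 came without either 8-week array. The cause was not tested. The count of all genes with a trend, 162, ranged from 35 (without 4 weeks replicate 1) to 417 (with array weights), so the shares of all genes depend on single arrays too. Counts over any ages and in each step were 0 in every alternative run. The change of Cacng5 lay between −0.44 and −0.33 and passed in 16 of 21 alternatives. No other member but Grin2d passed in any; their changes lay between −0.18 and 0.20, and the sign turned at least once for 15 of the 27 genes that did not pass, the largest with a change of 0.13. With adjustment over 3 ratios and not over all genes, the ratios of Gria4 to Gria2 (−0.18 to −0.13) and Cacng5 to Cacng7 (−0.39 to −0.30) passed in all 15 alternatives. Of these, quantile normalization was added after seeing the data. The ratio of Grin2b to Grin2a, at −0.01, ranged from −0.038 to 0.040 when 1 array was left out, with 0.040 without 4 weeks replicate 1. Without the 12-week arrays it was −0.086, and it passed in 0 of 15 alternatives. Whether replicate numbers pair the arrays is not given, and the values do not settle it. Of 10 correlations of deviations between ages, which ran from −0.34 to 0.16, 8 were above 0 and 3 over 0.1. The lowest was that between 6 and 8 weeks, whose replicate 1 arrays stand apart. With the replicate block the count of members stayed 1 (Cacng5, adjusted p = 0.022), and the ratios gave permutation p-values adjusted over 3 of 0.0015, 0.0015 and 0.79.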

Other observations

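The array of 8 weeks replicate 1 was the lowest of the 10 for 9 of the 28 receptor and Cacng genes, against 15.2% of all genes, and the highest for 2, against 29.6%. Among genes with a mean above 10, a level chosen after the values were seen, it was the lowest for 7 of 18 members and for 24.5% of 4730 genes. The array of 12 weeks replicate 2 was the highest for 7 of the 28 members, against 11.0% of all genes, and the lowest for 0, against 10.8%. Among genes with a mean above 10 it was the highest for 6 of 18 members, against 16.8% of the 4730 genes. It was the lowest there for 0, against 12.3%.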
